A study of Mus musculus with 4 samples.

Results

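The IGF axis in marrow stromal cells was described from 10 genes, chosen by symbol among the 56980 genes of the count table: the ligands Igf1 and Igf2, the receptors Igf1r and Insr, and the binding proteins Igfbp2, Igfbp3, Igfbp4, Igfbp5, Igfbp6 and Igfbp7. All 10 were listed, each under 1 Ensembl identifier, and no filter on low counts was applied. The cells were mesenchymal stromal cells (MSCs) sorted from the bone marrow of 4 wild-type male C57BL/6J mice, a colony kept inbred in-house, at 14 weeks of age. The gate took cells positive for CD51 and PDGFRa and negative for Sca1, CD31, Ter119 and CD45, and each library came from a small pool of cells of 1 mouse. No treated or mutant group was part of these libraries, so that values are compared between genes and between mice. In the study, such cells stood for the stromal side of a search for ligand and receptor pairs with macrophages, and Insr was among the receptors of interest.

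IGF1 and IGF2 are small secreted growth factors that act mainly through the tyrosine kinase receptor IGF1R, while the related insulin receptor, encoded by Insr, binds insulin and, in one splice form, IGF2. Most IGF outside cells is held by IGF-binding proteins, which bind the ligands tightly, keep them from the receptor or carry them to it, and are cut by dedicated proteases. In bone, IGF1 made by stromal and osteoblastic cells is stored in the matrix with IGFBP5, while IGFBP4 is known mainly as an inhibitor of IGF action, and growth hormone drives Igf1 transcription.

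The libraries held between 22738604 and 43545349 counts, and 3 counts, taken as the smallest value to be read, correspond to between 0.0689 and 0.132 in a library scaled to 1000000 counts. Levels are given as TPM, a length-corrected share of the transcripts in which a count is divided by the length of the gene's merged exons and each library is scaled to 1000000, so that genes can be compared with each other. The library of mouse 2 stood apart with 16109 detected genes, against 18683 to 18907 in the other mice. Several results that rest on this library, but not all, are given with and without it. The sorted antigens were present, with Pdgfra between 30.7 and 48.2 TPM and Itgav, which encodes CD51, between 12.9 and 18.1 TPM. Ly6a, which encodes Sca1, a protein the gate selects against, had 8.95 TPM in mouse 2 and 11.6 TPM in mouse 4, against 0.0472 and 0 TPM in mice 1 and 3.

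The binding protein genes on which the account turns are shown by the 250 bases upstream of their starts for the 3 most abundant members and for Igfbp2, the neighbour of Igfbp5 with 0 counts in 3 of the 4 mice. The sequences are those of RefSeq on GRCm38.p6, 5′ to 3′ on the strand of the gene. Capitals mark the TATA box core TATAAA and the GC box GGGCGG, and their reverse complements TTTATA and CCGCCC.
Igfbp4, plus strand, chr11:99040994-99041243: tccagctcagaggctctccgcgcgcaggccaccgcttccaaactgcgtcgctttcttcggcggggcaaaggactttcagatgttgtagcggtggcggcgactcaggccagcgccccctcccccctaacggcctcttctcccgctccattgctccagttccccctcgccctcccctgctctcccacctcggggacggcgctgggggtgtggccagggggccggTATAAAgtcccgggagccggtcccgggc
Igfbp7, minus strand, chr5:77408046-77408295: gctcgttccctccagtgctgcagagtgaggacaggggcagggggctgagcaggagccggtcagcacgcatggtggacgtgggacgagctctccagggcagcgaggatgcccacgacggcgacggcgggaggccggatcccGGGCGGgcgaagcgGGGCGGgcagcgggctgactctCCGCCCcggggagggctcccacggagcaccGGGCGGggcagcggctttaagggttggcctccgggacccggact
Igfbp5, minus strand, chr1:72874866-72875115: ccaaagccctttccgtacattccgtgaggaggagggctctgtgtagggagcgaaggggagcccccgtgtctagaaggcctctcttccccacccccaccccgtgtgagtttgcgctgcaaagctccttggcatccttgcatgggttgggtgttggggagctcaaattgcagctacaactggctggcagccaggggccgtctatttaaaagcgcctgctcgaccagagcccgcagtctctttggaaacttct
Igfbp2, plus strand, chr1:72824230-72824479: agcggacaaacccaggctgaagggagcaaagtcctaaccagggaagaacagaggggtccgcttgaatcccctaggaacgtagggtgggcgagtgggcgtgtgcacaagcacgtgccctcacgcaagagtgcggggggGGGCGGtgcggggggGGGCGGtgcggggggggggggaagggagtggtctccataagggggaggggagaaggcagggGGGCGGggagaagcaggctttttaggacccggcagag
The window of Igfbp4 held 1 TATAAA and no GGGCGG, with 22 CpG dinucleotides and a GC content of 69.2%. The window of Igfbp7 held 4 GGGCGG on either strand, 26 CpG and a GC content of 74%. In Igfbp5 neither motif was found, and the window had 10 CpG and a GC content of 58.8%. Igfbp2 had 3 GGGCGG, 14 CpG and a GC content of 67.2%. Among all 32851 promoters of the table, 12.4% held TATAAA and 32.7% held GGGCGG on either strand, 4.09% held at least 4 GGGCGG, and the medians were 6 CpG and a GC content of 52.4%. Promoters were listed for 9 of the 10 genes, and of their 13 windows 2 held TATAAA and 5 held GGGCGG. A motif in a window describes its letters and was not linked to any level.

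The members spanned a wide range of levels. Ordered by their median over the 4 mice, Igfbp4 stood highest with 574 TPM, followed by Igfbp7 with 151, Igfbp5 with 128, Igfbp6 with 38.3, Igfbp3 with 38.2, Igf1 with 14.0, Insr with 2.38, Igf1r with 0.937, Igf2 with 0.0482 and Igfbp2 with 0 TPM. The median of Igfbp4 was higher than that of 99.2% of the protein-coding genes, and that of Igfbp5 higher than 96.6%. Of the 9 pairs of neighbours in this order, 3 differed by more than the SD of their difference in log2(TPM + 1), each in 4 of 4 mice. Those were Igfbp4 above Igfbp7 by 1.46 ± 0.75, Igfbp3 above Igf1 by 1.93 ± 0.80 and Igf1 above Insr by 2.02 ± 1.33 (mean ± SD, n = 4). The other 6 neighbour pairs did not differ beyond their spread.

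A median TPM above 1, the cutoff used in the study to call a gene expressed, was reached by 7 of the 10 members: Igf1, Insr, Igfbp3, Igfbp4, Igfbp5, Igfbp6 and Igfbp7. Of all genes with a length 22.9% passed this cutoff, and of the protein-coding genes 44.2%. Above 1 TPM in every mouse were 5 of the 10, namely Igf1, Igfbp3, Igfbp4, Igfbp5 and Igfbp7, against 30.1% of the protein-coding genes. The number past the median cutoff was 6 without mouse 3, when Igfbp6 no longer passed, and 8 without mouse 2, when Igf1r also passed. Without mouse 1 it stayed at 7, with Igf1r in place of Igfbp6.

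**Figure D1:**
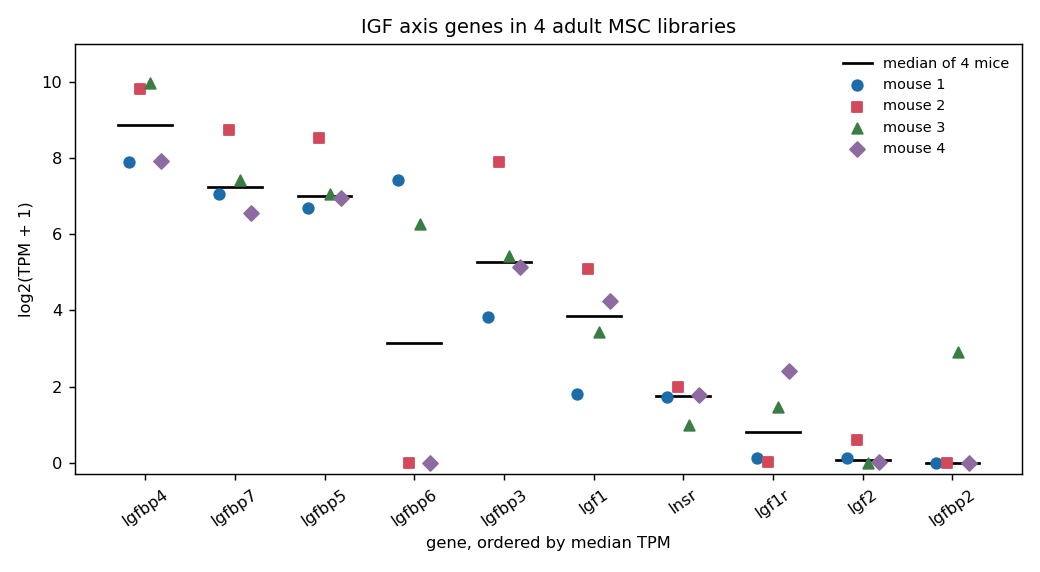
Level of each gene in each of the 4 libraries as log2(TPM + 1), with genes ordered by their median TPM. Black bars lie at the medians of log2(TPM + 1), so that the bar of Igfbp6 is below that of Igfbp3. Igfbp4 lies at the top in every mouse, with Igfbp7 and Igfbp5 next except in mouse 1, where Igfbp6 comes second. Igfbp6 splits into 2 mice with reads and 2 mice at 0, and Igf1r splits into mice 3 and 4 above mice 1 and 2.

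Of the ligands, Igf1 had the higher level in every mouse. Igf1 (ENSMUSG00000020053, GRCm38 chr10:87858265-87937042, plus strand) was read 433, 3613, 1694 and 1850 times in mice 1, 2, 3 and 4, which is 2.49, 32.8, 9.90 and 18.1 TPM. Its mean was 15.8 ± 13.0 TPM (SD, n = 4), with mouse 2 highest and mouse 1 lowest, and without mouse 2 the mean was 10.2 TPM. Its coefficient of variation of 82.1% lay above that of 86.2% of the 4673 genes between 10 and 100 TPM, whose median was 42.4%. Without mouse 2 it was 76.8%, above that of 86.3% of the genes in this range over the other mice. Without mouse 1, its lowest mouse, it was 57.3%, above that of 67.3% of such genes, whose median was 41.7%. Without mouse 3 or mouse 4 it was 85.2% or 105%.

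Igf2 (ENSMUSG00000048583, chr7:142650766-142666816, minus strand), the fetal growth factor expressed from the paternal allele, had 8, 32, 0 and 1 counts in mice 1 to 4. That is 0.0795, 0.503, 0 and 0.0169 TPM, and the values of mice 3 and 4 are under the level of 3 counts. Mouse 2 held most of the reads. The level of Igf2 is uncertain, since 62.8% of its exonic bases are shared with the readthrough gene Gm49394 on the same strand, which had 0 counts in every mouse, and a read pair on exons of both genes is by default assigned to neither. H19, the imprinted noncoding RNA whose gene lies 72622 bases from Igf2, had 0 counts in mice 1, 2 and 3 and 79 counts, or 3.11 TPM, in mouse 4. The library with H19 was therefore not the library with most Igf2.

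Within each mouse, Igf1 exceeded Igf2, by 1.69, 4.49, 3.45 and 4.23 in log2(TPM + 1) for mice 1 to 4. The mean difference was 3.46 ± 1.26 (SD, n = 4), with an exact two-sided sign-flip permutation p of 0.125 (0.167 after Benjamini-Hochberg adjustment over the 4 pairs of genes tested). A p of 0.125 is the smallest that 4 mice allow, so none of the 4 pairs could pass a threshold of 0.05. Igf1 made between 96.9% and 100% of the ligand TPM. This share and the difference rest on the level of Igf2, which is uncertain because of the exons shared with Gm49394.

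The receptors were low beside most of the binding proteins, and their balance changed between mice. The median of Insr was higher than that of 61.7% of the protein-coding genes, and that of Igf1r higher than 55.5%. Igf1r (ENSMUSG00000005533, chr7:67952827-68233668, plus strand) was counted 29, 3, 515 and 745 times in mice 1 to 4, which is 0.0982, 0.0161, 1.77 and 4.29 TPM. Mice 3 and 4 were above the cutoff of 1 TPM and mice 1 and 2 far below it, with the 3 counts of mouse 2 at the limit of reading. The mean of 1.55 ± 2.00 TPM (SD, n = 4) lay near the level of mouse 3 alone and does not show this split between mice.

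Insr (ENSMUSG00000005534, chr8:3122061-3279617, minus strand) had 556, 457, 234 and 349 counts, which is 2.30, 2.99, 0.985 and 2.46 TPM in mice 1 to 4. Its mean was 2.18 ± 0.851 TPM (SD, n = 4). Its coefficient of variation of 39.0%, the smallest among the members over all 4 mice, was higher than that of only 15.5% of the 8584 genes between 1 and 10 TPM, where the coefficient of Igf1r, 130%, was higher than that of 70.8%. Without mouse 3, its lowest mouse, the coefficient of Insr was 14.0%.

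The difference of Igf1r minus Insr in log2(TPM + 1) was -1.59, -1.97, 0.48 and 0.61 in mice 1 to 4, so that Insr was the higher receptor in mice 1 and 2 and Igf1r in mice 3 and 4. The mean of -0.62 ± 1.35 was within its spread, with an exact two-sided permutation p of 0.5 over the 4 mice, also after adjustment. Without mouse 2 the mean was -0.16 and without mouse 1 it was -0.29, and without mouse 3 or 4 it was -0.98 or -1.03. Igf1r made 4.10% and 0.535% of the TPM of both receptors in mice 1 and 2, and 64.3% and 63.6% in mice 3 and 4.

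Set against its own receptor, Igf1 was higher than Igf1r in 4 of 4 mice. The difference in log2(TPM + 1) was 1.67, 5.06, 1.97 and 1.85, with a mean of 2.64 ± 1.62 (SD, n = 4) and an exact permutation p of 0.125 (adjusted p = 0.167). Mouse 2, with the highest Igf1 and the lowest Igf1r, carried much of that mean, which was 1.83 without it. The summed ligand TPM was 1.07, 11.1, 3.59 and 2.68 times the summed receptor TPM in mice 1 to 4.

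**Figure D2:**
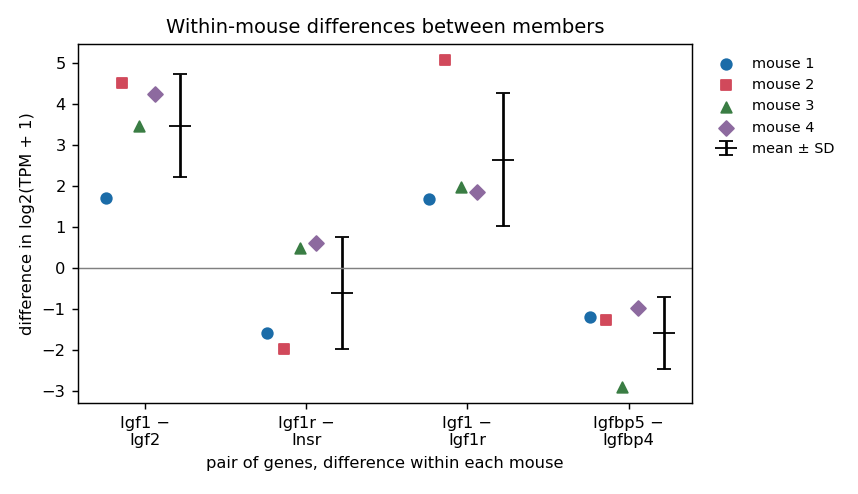
Difference in log2(TPM + 1) within each mouse for the 4 pairs of genes tested, first gene minus second, with the mean ± SD of 4 mice beside the points and a line at 0. Igf1 minus Igf2 and Igf1 minus Igf1r lie above 0 in 4 of 4 mice and Igfbp5 minus Igfbp4 below 0 in 4 of 4, whereas Igf1r minus Insr has mice on both sides.

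The binding proteins made up most of the axis. Their TPM, summed over the 6 genes, was 656, 1942, 1426 and 495 in mice 1 to 4, which is 256, 58.3, 144 and 27.3 times the summed TPM of the ligands. In raw reads they took 0.0831%, 0.320%, 0.228% and 0.0925% of all counts. Mice 2 and 3 were high and mice 1 and 4 low in both measures.

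Igfbp4 (ENSMUSG00000017493, chr11:99041244-99054392, plus strand) led in every mouse. It had 18434, 44413, 76041 and 11114 counts, which is 237, 904, 997 and 244 TPM, with a mean of 595 ± 412 TPM (SD, n = 4). Mice 2 and 3 had well above the level of mice 1 and 4. Mouse 3 was highest in TPM, and mouse 2 was highest instead when libraries were scaled by DESeq2 size factors, by a common upper quartile or without the 10 highest genes. Its coefficient of variation of 69.1% exceeded that of 95.9% among the 911 genes between 100 and 1000 TPM, whose median was 23.5%. Of its longest transcript, 4.36% is near-identical to stretches of 7 other genes. Only uniquely mapped pairs were counted by the authors, so that a small part of its reads may have been lost there.

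Igfbp5 (ENSMUSG00000026185, chr1:72857932-72874884, minus strand), the binding protein held in bone matrix, had 10876, 24790, 13720 and 7656 counts, which is 103, 371, 132 and 123 TPM in mice 1 to 4. Mouse 2 stood alone above the other mice, which lay close together, and the mean of 182 ± 126 TPM (SD, n = 4) became 119 TPM without it. Igfbp7 (ENSMUSG00000036256, chr5:77349240-77408041, minus strand), a relative of the family that binds IGFs weakly, had 2797, 5758, 3580 and 1173 counts, or 131, 428, 171 and 93.9 TPM. Here too mouse 2 was highest, and the mean was 206 ± 151 TPM (SD, n = 4) with it and 132 TPM without it. In an overlap with Polr2b on the opposite strand lie 85 exonic bases, 7.03% of the exonic length of Igfbp7, where unstranded counting cannot tell the genes apart.

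Igfbp5 was lower than Igfbp4 in 4 of 4 mice, by -1.20, -1.28, -2.90 and -0.98 in log2(TPM + 1). The mean of -1.59 ± 0.89 (SD, n = 4) had an exact two-sided permutation p of 0.125 (adjusted p = 0.167). In linear terms Igfbp4 had 2.31, 2.44, 7.54 and 1.97 times the TPM of Igfbp5, so that mouse 3 was apart from the other mice in this ratio. Without mouse 3 the mean difference was -1.15.

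Igfbp3 (ENSMUSG00000020427, chr11:7206086-7213923, minus strand), the main IGF carrier of the circulation, had 720, 8299, 2294 and 1101 counts, which is 13.1, 238, 42.4 and 34 TPM in mice 1 to 4. Mouse 2 exceeded all others and mouse 1 was lowest, in the same order of extremes as for Igf1. The mean of 82.0 ± 105 TPM (SD, n = 4) fell to 29.8 TPM without mouse 2. Of the genes between 10 and 100 TPM, 97.2% had a smaller coefficient of variation than its 128%, and 67.9% a smaller one than its 50.6% without mouse 2. Its gene lies 3539 bases from that of Igfbp1, the liver binding protein controlled by insulin, which had 0 counts in every mouse.

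Igfbp6 (ENSMUSG00000023046, chr15:102144362-102149511, plus strand), which prefers IGF2, was either abundant or at 0. It had 3351 and 1472 counts in mice 1 and 3, which is 171 and 76.6 TPM, and 0 counts in mice 2 and 4. A count of 0 allows up to 3 counts, or 0.243 and 0.261 TPM in those libraries. The median of 38.3 TPM thus lies between libraries with many reads and libraries with none, and was the level of no mouse. Mice 1 and 3 were also the deeper libraries, and the ones with reads of Alas2, the erythroid heme enzyme, picked here after its values were seen (845 and 308 counts against 0 and 0), and with the highest summed TPM of 5 erythroid genes (4885 and 1670, against 35 and 351 in mice 2 and 4). The part of depth or of carried-over erythroid RNA in the Igfbp6 reads was not tested.

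Igfbp2 (ENSMUSG00000039323, chr1:72824503-72852474, plus strand), a binding protein of the circulation and of growing tissues, had 206 counts, or 6.45 TPM, in mouse 3 and 0 counts in the other mice. The same library alone had reads of Igfals, which encodes the third protein of the circulating IGF complex and is named after its values were seen, with 81 counts and 1.48 TPM. Igfbp2 and Igfbp5 face each other on chromosome 1 with 5457 bases and no other gene between their ends, and 3 of the 4 mice had Igfbp5 above 100 TPM beside Igfbp2 at 0 counts. Both Igfbp2 and Igfbp6 thus belong to the genes above 1 TPM in at least 1 library and at 0 counts in another. Such genes were 2 of the 9 members above 1 TPM anywhere and 36.2% of the 17082 genes of that kind.

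**Figure D3:**
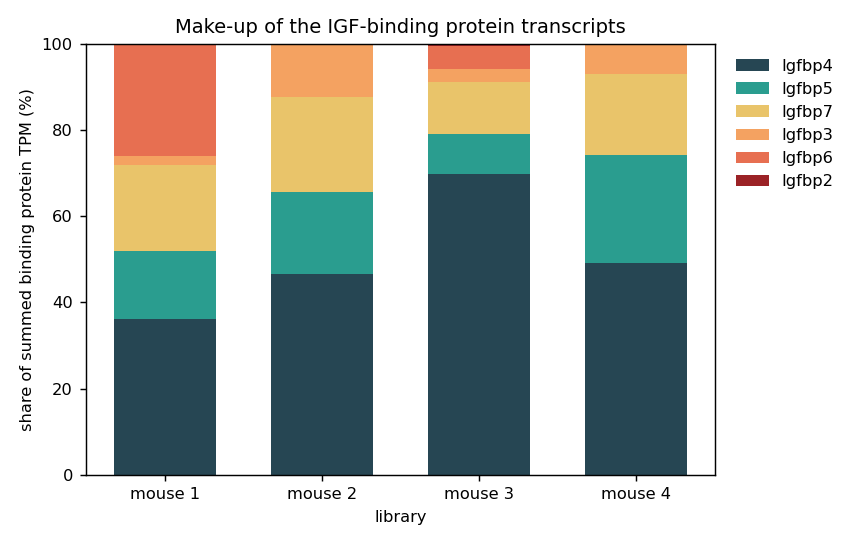
Share of each IGF-binding protein in the summed binding protein TPM of each mouse, in percent. Igfbp4 is the largest part in every mouse, from 36.2% in mouse 1 to 69.9% in mouse 3, and Igfbp6 makes 26.1% in mouse 1 and 0% in mice 2 and 4.

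The make-up of the binding proteins differed between mice. Igfbp4 made 36.2%, 46.6%, 69.9% and 49.2% of their summed TPM in mice 1 to 4, and Igfbp4 with Igfbp5 made between 51.9% and 79.2%. Igfbp3 made between 1.99% in mouse 1 and 12.3% in mouse 2. Igfbp7 made between 12% in mouse 3 and 22.1% in mouse 2, and Igfbp5 between 9.27% in mouse 3 and 24.9% in mouse 4.

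Several members were highest in the same library. Of the 9 members above 1 TPM in at least 1 library, 5 had their highest level in mouse 2, namely Igf1, Insr, Igfbp3, Igfbp5 and Igfbp7, where 23.3% of all such genes had it. None of the 5 changed its highest mouse under the other scalings of the libraries. Of the 25 other genes of the pathway above 1 TPM in a library, 9 were highest in mouse 2. The summed TPM of 6 niche stroma genes, of which Cxcl12 makes most, was 1052, 4534, 2316 and 1194 in mice 1 to 4, and that of 4 adipocyte genes, led by Adipoq and Lpl, was 199, 962, 439 and 234. Both sums were highest in mouse 2 and lowest in mouse 1, as Igf1, Igfbp3 and Igfbp5 were. The osteoblast sum, most of it Bglap, ran differently, with 108982, 133635, 77792 and 168024 TPM. Its other genes did not follow it. Ibsp and Alpl were highest in mouse 3, with 20907 and 963 TPM, where the sum was lowest. Ibsp and Sp7 were lowest in mouse 4, with 10570 and 151 TPM, where the sum was highest. The osteoblast sum is thus the level of Bglap and not of a cell type. In the niche list only Prrx1 was lowest in mouse 2, with 10.6 TPM, and the other genes were highest there. Whether the make-up of the sorted pools plays a part in the levels of these members was not tested, and in such pools fewer cells of a type and less RNA per cell cannot be told apart.

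Genes of other blood and vessel cells were measured beside the members. Of the blood and vessel sums, the erythroid one was the largest, with 4885, 35, 1670 and 351 TPM in mice 1 to 4. The 4 endothelial genes summed to at most 1.27 TPM, with Cdh5 and Kdr at 0 counts in every library. Of 5 macrophage genes, Adgre1, Csf1r, C1qa and Lyz2 were at 0 in every library, and the sum reached 6.63 TPM in mouse 3 through Cd68. The lymphoid gene Cd3e was at 0 in every library, the neutrophil sum was between 4.09 and 30.7 TPM, and the megakaryocyte sum was 7.95 TPM in mouse 1 and 0 in the others. Of the 4 chondrocyte genes, Col11a2 alone made nearly all of the sum of 219 to 352 TPM, with Matn3 at 0 in 3 mice. Of the 6 fibroblast genes, Dcn made nearly all of the sum of 1848 to 3655 TPM, with Dpt, Pi16 and Cd34 at or near 0, so that neither sum is the level of a cell type.

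**Figure D4:**
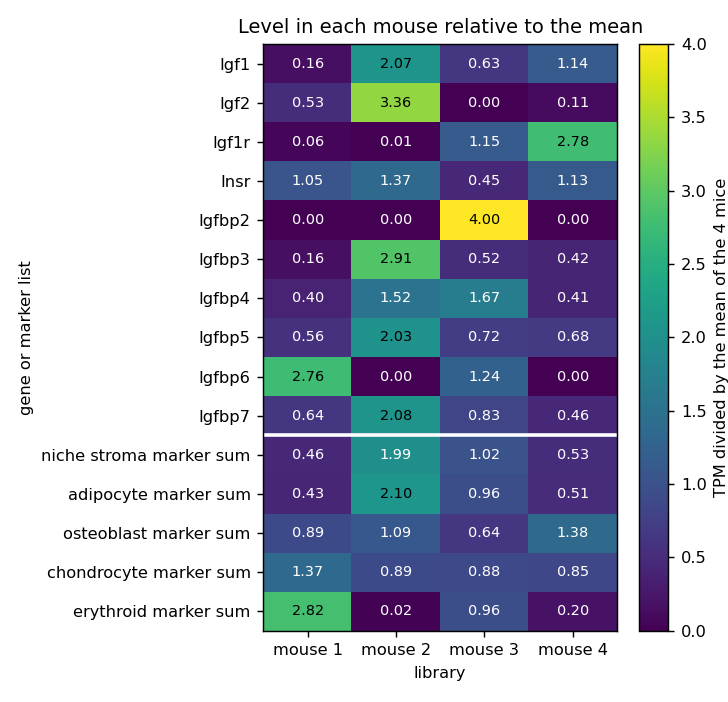
TPM of each member and of 5 marker sums in each mouse, divided by its mean over the 4 mice, as colours with the ratio printed in each cell. Igf1, Igfbp3, Igfbp5 and Igfbp7 and the niche stroma and adipocyte sums have their highest ratio, between 1.99 and 2.91, in mouse 2, and Igfbp6 and the erythroid sum in mouse 1.

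Over all 4 mice, the coefficients of variation of Igf1 and of the binding proteins from Igfbp3 to Igfbp7 were above those of most genes of the same level, and for several of them this rested on mouse 2. The coefficients of variation of Igfbp5, 69.3%, and Igfbp7, 73.4%, exceeded those of 96.0% and 96.7% of the genes between 100 and 1000 TPM, and that of Igfbp6, 131%, exceeded 97.4% of those between 10 and 100 TPM. Without mouse 2, the coefficient of Igfbp5 was 12.6%, above that of 23.7% of the 926 genes then between 100 and 1000 TPM, whose median was 21.4%, and that of Igfbp7 was 29.3%, above 69.1% of them. Those of Igfbp4, 88.6%, and Igfbp6, 104%, were then above 98.1% and 94.8% of the genes in their ranges. The high spread of Igfbp5 was thus the value of 1 mouse, while mice 1, 3 and 4 also differed widely in Igfbp4 and Igfbp6.

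**Figure D5:**
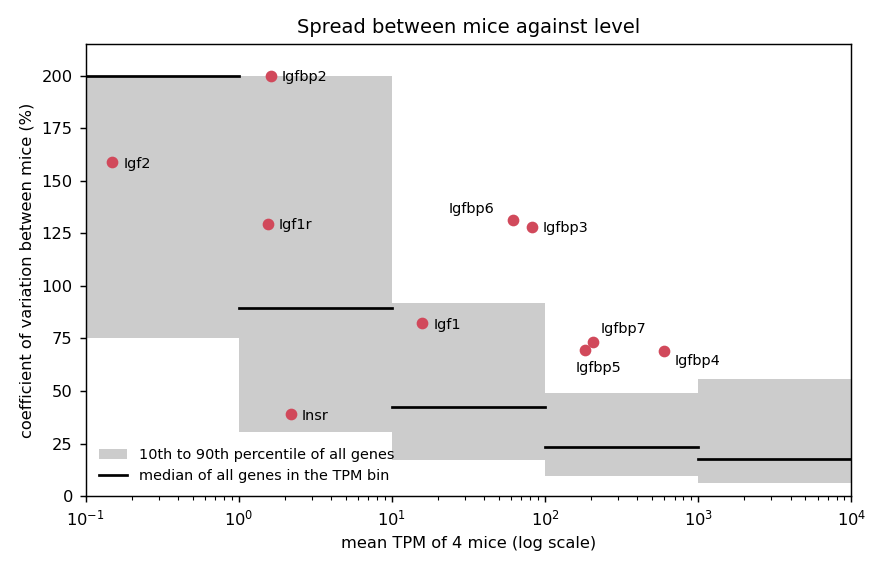
Coefficient of variation between the 4 mice in percent against mean TPM on a log axis, for the members as points, with the median (black line) and the 10th to 90th percentile (grey) of all genes in each range of TPM. Igfbp3 to Igfbp7 lie above the grey areas of their ranges, Igf1 lies inside near the upper edge at 82.1%, and Insr lies below its median of 89.6%. Without mouse 2 the coefficient of Igfbp5 is 12.6%.

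Around the members, most listed genes that carry the signal inside the cell were detected. A list of 37 further genes was examined, of which 23 had a median TPM above 1, 18 were above 1 TPM in every mouse and 5 were at 0 counts in every mouse. Of all protein-coding genes, 44.2% and 30.1% met these cutoffs. The genes at 0, named after their values were seen, were the insulin genes Ins1 and Ins2, Igfbp1, Igfbpl1 and the adaptor Irs4. The median of 11 of 12 adaptors and kinases passed the cutoff, and 7 were above it in every mouse. The brakes of the pathway passed in 5 of 5 cases, each in every mouse, and the transcription factors in 3 of 3, with 2 in every mouse. Of the other receptors 2 of 3 passed, and of the proteases and their inhibitors 2 of 5. None of the 5 other ligands and binding partners and none of the 3 IGF2 mRNA-binding proteins passed.

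The highest of these genes was Htra1, a secreted serine protease known to cut IGF-binding proteins, with 119, 224, 203 and 116 TPM in mice 1 to 4 and a median of 161 TPM. Pappa, the metalloprotease that cuts IGFBP4 and so frees IGF, had 9.06, 29.6, 6.82 and 8.52 TPM, with mouse 2 alone above the others. Its inhibitors were low, with 1 count of Stc1 in mouse 1 only and 12, 0, 26 and 28 counts of Stc2. Transcripts of both proteases were therefore present in every mouse together with those of Igfbp4, while protein and cleavage were not measured.

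Igf2r, the receptor that takes up IGF2 for degradation, had 8.69, 3.96, 7.66 and 7.64 TPM and was lowest in mouse 2. Ghr, the growth hormone receptor, had 16.1, 51.1, 11.1 and 29.5 TPM, with mouse 2 highest as for Igf1. Its lowest mouse was mouse 3, whereas that of Igf1 was mouse 1. Ghr is named after its values were seen.

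Behind the receptors, the adaptor Irs1 had 1.86, 2.30, 3.08 and 0.688 TPM and Irs2 had 1.26, 0.341, 8.79 and 1.33 TPM, so that Irs2 was high in mouse 3 only. The kinase Akt1, with a median of 37.0 TPM, the phosphatase Ptpn1, which acts on the insulin receptor, with 35.9 TPM, and the adaptor Shc1 and the cytokine suppressor Socs2 completed the 5 highest medians. Shc1 had between 12.4 and 41.2 TPM, and Socs2 had between 23.2 and 49.4 TPM. Grb10, an adaptor that dampens signalling from both receptors, had 16.2, 13.8, 14.4 and 5.72 TPM.

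No gene of this list was at 0 counts in 1 library and above 10 TPM in another, as Igfbp6 was. The share of all genes with that pattern was not computed. Of the 25 listed genes above 1 TPM in a library, 2 were at 0 counts in another. Among all 17082 genes above 1 TPM in a library, 36.2% were. Some listed genes came near to the pattern of Igfbp6, and Stat5b and Sos1 are named after their values were seen. Stat5b, which transmits growth hormone signals to Igf1, had 1 count in mouse 1, the mouse with the least Igf1, and 12.9, 4.64 and 4.51 TPM in mice 2, 3 and 4. Its levels in mice 3 and 4 were close, while Igf1 had 9.90 and 18.1 TPM there. A part of growth hormone signalling in the level of Igf1 was not tested. The exchange factor Sos1 had 2 counts in mouse 2 and between 1.63 and 3.66 TPM in the other mice.

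The genes most like Igf1 over the 4 libraries, by Euclidean distance in log2(TPM + 1) among 21921 protein-coding genes, were Ubap2 and Apbb2, both at a distance of 0.629, and Angpt1 at 0.724. Angpt1, which encodes the secreted factor angiopoietin-1, had 3.60, 34.9, 6.35 and 15.9 TPM in mice 1 to 4. The genes nearest to Igf1r were Pxn at 0.12, Emc9 at 0.158 and Klhl23 at 0.166. Pxn, which encodes the adhesion protein paxillin, had 0.153, 0.0658, 1.65 and 4.22 TPM. Such likeness over 4 libraries describes these libraries, and the points share their depth and pool of cells.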

How the data were processed

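RNA of small pools of sorted MSCs, 1 library per mouse, had been turned into cDNA by oligo-dT priming with template switching, then amplified and tagmented. STAR 2.7.10 was used by the authors for alignment to GRCm39. They counted pairs on exons of Ensembl genes with featureCounts (Subread 1.6.5), with no strand option given, and deposited raw counts per gene without normalization. No molecular identifiers are described, so that floors and counting errors cover counting error only.

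Python 3.11.15 (pandas 2.3.3, numpy 2.4.6, scipy 1.17.1) was used to derive TPM from merged exon lengths of GENCODE M21 on GRCm38, available for 52125 genes that hold 96.1% to 98.2% of each library. Exons that changed between the builds shift a TPM by the ratio of lengths. Coordinates are those of GRCm38. The code was tested on simulated data. The 4 libraries form 1 group, and 4 pairs of genes were compared within mice by exact two-sided sign-flip permutation tests on log2(TPM + 1). With 4 mice, the p of this test is 0.125 whenever all differences share a sign, whatever their SD. The p-values concern these 4 libraries only. BLAST 2.17.0 was used to find near-identical copies (95% identity, minimum of 100 bases). Scalings by edgeR 4.0.16 (TMM) and DESeq2 1.42.0 size factors served as alternatives only.

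The members, the pathway and marker lists and the pairs were chosen with earlier results of these data known. Named are all members, pathway genes with one of the 5 highest medians or a role that bears directly on a member, the 3 nearest genes of Igf1 and Igf1r, and marker genes at 0 in every library or making most of a sum. Outside that rule are Ghr, Stat5b, Sos1, Igfals, Alas2 and the marker genes Ibsp, Sp7, Alpl and Prrx1. The pathway genes at 0 in every library, some genes at 0 in part of a marker list and the antigens of the gate fall outside it too. Some items are not reported here.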

Additional observations from a re-analysis of the deposited data

Results flagged for a closer look

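For 43 values, the gap between the highest or lowest mouse and its nearest neighbour was divided by the range of the 4 mice and compared with Dixon's critical value. Chance passes about 1 in 20 groups of normally spread values, a rate that does not hold for levels with 3 mice at 0, whose share is 1 by construction. Of the values, 16 passed, and the mouse set apart was mouse 1 in 3, mouse 2 in 5, mouse 3 in 5 and mouse 4 in 3 cases. The values overlap, since sums and differences hold genes that are also listed alone. The share passing among all genes was not computed, so that this number is not read as an excess.

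Mouse 2 stood above the others in Igf2 (a share of the range of 0.842), Igfbp3 (0.870), Igfbp5 (0.891), the difference of Igf1 minus Igf1r (0.909) and the protease gene Pappa (0.902). In Igfbp3 the other mice lay between 13.1 and 42.4 TPM against 238 TPM in mouse 2, and in Igfbp5 between 103 and 132 TPM against 371 TPM.

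Mouse 3 stood apart in Igfbp2 and Igfals (each with a share of 1, since every other mouse had 0 counts), in Irs2 (0.883), in the macrophage marker sum through Cd68 (0.925) and, as the lowest mouse, in Igfbp5 minus Igfbp4 (0.841). The reads of Igfbp2 and Igfals in this library went with 144 counts of Cd68 and 0 of Adgre1, Csf1r, C1qa and Lyz2, and a part of other cells in them was not tested.

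Mouse 4 was highest in the summed TPM of both receptors (0.860), with 6.75 TPM against 2.40 to 3.0 TPM, in H19 (1) and in the lymphoid marker sum (1), which rests on 22 counts of Cd79a. Mouse 1 was highest in the chondrocyte marker sum (0.926), in the megakaryocyte marker sum (1) and in Stc1 (1), the last on 1 count, which is under the level of 3 counts.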

How the results depend on the processing

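The 4 differences between genes kept their direction in each of the 13 alternatives run for them, which were another gene length, CPM, other denominators and scalings, another pseudocount, a minimum of 10 counts and leaving out each mouse. Igf1 minus Igf2 ranged from 3.12 to 5.89, Igf1r minus Insr from -1.69 to -0.16, Igf1 minus Igf1r from 1.83 to 4.08 and Igfbp5 minus Igfbp4 from -1.79 to -1.15. With 3 mice the smallest p of the exact permutation test is 0.25, so that these tests say nothing about stability. The number of members past the cutoff was between 5 and 9. Igf1r, at a median of 0.937 TPM, changed sides most easily. The mean of Insr was 3.53 TPM with the 10 highest genes left out of the denominator, beyond 1 SD of its value of 2.18 TPM. Leaving out each mouse for the coefficients of variation was chosen after seeing the data, and without mouse 2 that of Igfbp5 went from 69.3% to 12.6%, of Igfbp7 from 73.4% to 29.3% and of Igfbp3 from 128% to 50.6%. The limits are the 4 mice, lengths from another build than the counts, Igf2 reads shared with a readthrough gene, and amplified cDNA from small pools, in which a count of 0 does not show absence.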
